A study of Mus musculus with 24 samples.

Results

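This account describes 48 transcripts of the mouse embryonic forelimb whose ribosome footprints were lower, at nearly level RNA, where 1 allele of Rps6 was lost and Trp53 was intact. They were chosen by measured values, namely the change of footprints and of RNA between the Rps6 het, Trp53 WT and the Rps6 WT, Trp53 WT libraries. A member had a mean of at least 20 CPM (the reads of a transcript scaled to a common library total) in both kinds of control library. Its footprint log2 ratio of group mean CPM + 0.5, Rps6 het over Rps6 WT, was at or under -0.3, which is a fall of 18.8%, and its RNA log2 ratio lay within 0.1 of 0. Of 21960 transcripts in the deposited table, 6136 were above the level limit, and 48 of these (0.782%) met the rule. The opposite rule, with footprints at or over 0.3 and RNA within 0.1, found 34.

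Ribosome profiling sequences the stretches of mRNA that ribosomes shield from RNase, the ribosome-protected fragments (RPF), and sequencing of RNA from the same lysates gives the mRNA level. The RPF change less the RNA change is a change in translational efficiency (TE), the footprints per mRNA. Rps6 codes for a small-subunit ribosomal protein. Loss of ribosomal protein genes is known to limit ribosome assembly and to stabilize p53, the transcription factor encoded by Trp53, which restrains growth and can induce mRNAs whose proteins dampen translation.

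Forelimbs were taken at stage E10.5, and each library was made from limb material of a pair of embryos of 1 genotype. All 4 genotypes carried the floxed allele, Rps6lox/+. The controls, called Rps6 WT, lacked Cre, while Rps6 het also carried Prx1Cre, a transgene that expresses Cre in limb bud mesenchyme, so other cells of the limb kept both alleles. Each was studied with Trp53+/+ (Trp53 WT) and with Trp53-/- (Trp53 null), with 3 replicate pools per genotype, giving 12 RPF and 12 RNA libraries. In such bulk material, fewer cells of a type and less RNA per cell cannot be told apart.

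RPF libraries held 7026056 to 16835045 counts and RNA libraries 14291854 to 29104669. A level of 3 counts, the least taken as detectable, was 0.178 to 0.427 CPM in RPF and 0.103 to 0.21 CPM in RNA. Members were far above it, with at least 119 counts in every RPF library and 288 in every RNA library. The table names transcripts by versioned Ensembl ID, and 0 of 21960 IDs could be paired with a gene symbol. For this reason, neither the lists of pathway genes and cell type markers, nor the limb identity of the tissue, nor the levels of Rps6 and Trp53 themselves were examined. Only 4 members are given by ID, and the others by their rank, from 1 for the deepest RPF fall in Trp53 WT to 48 for the shallowest. What the 48 encode, and whether any of them splits its reads with a paralog, a pseudogene or an overlapping transcript, is not known here.

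In Trp53 WT, RPF ratios of the members ran from -0.74 to -0.30 with a median of -0.34, a fall of 20.8%. These values chose the members and are given without a test. The limit lay close to most of them. A ratio over -0.35 was found in 28 members, 11 lay from -0.35 down to -0.4, 5 from -0.4 down to -0.5, and 4 were at or under -0.5. The closest members inside the RPF limit stood at -0.301 and -0.302, and the closest transcripts outside it at -0.2997 and -0.2995. At the RNA limit, members at 0.0991 and 0.0980 were kept, and transcripts at -0.101 and -0.102 were not.

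Such footprint falls at level RNA were the smaller share of all footprint falls. RPF was at or under -0.3 in 474 of the 6136 transcripts (7.72%), and RNA was under -0.1 in 416 of these. It was within 0.1 in the 48 members and over 0.1 in the remaining 10. Over all 6136 transcripts the median ratio was -0.06 in RPF and -0.03 in RNA. Member RNA ratios had a median of -0.01, with 25 below 0 and 23 above, and 25 members lay within 0.05 of 0. The RPF less RNA ratio of the members ran from -0.69 to -0.21 with a median of -0.34.

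Values by replicate pool again describe the libraries that chose the members. All 3 Rps6 het RPF libraries lay below all 3 Rps6 WT libraries in 47 of 48 members, against 34.7% of the 6136 transcripts. For 36 members the Rps6 het, Trp53 WT libraries also lay below all 9 RPF libraries of the other genotypes, against 18.2% of transcripts. RNA of the groups overlapped for 44 members, against 48.5% of transcripts. Within a group, the coefficient of variation of a member had a median of 5.25% in RPF and 5.93% in RNA, compared with 4.05% and 4.18% over the 6136 transcripts.

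Scaling moved many members across the limit. CPM used the library totals, as the rule states. With totals scaled by TMM, which sets the bulk of transcripts level between libraries, the median RPF ratio of the 6136 transcripts moved up by 0.06 and the median RNA ratio by 0.04. On that scale 17 of 48 members still met the RPF limit, 41 met the RNA limit and 14 met both, while the members' median RPF ratio was -0.28 and their highest was -0.24. A shift of 0.06 cannot lift ratios at or under -0.3 above 0, so all 48 stayed below 0 in RPF by choice. The size at which they were chosen depended on the scale.

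**Figure D1:**
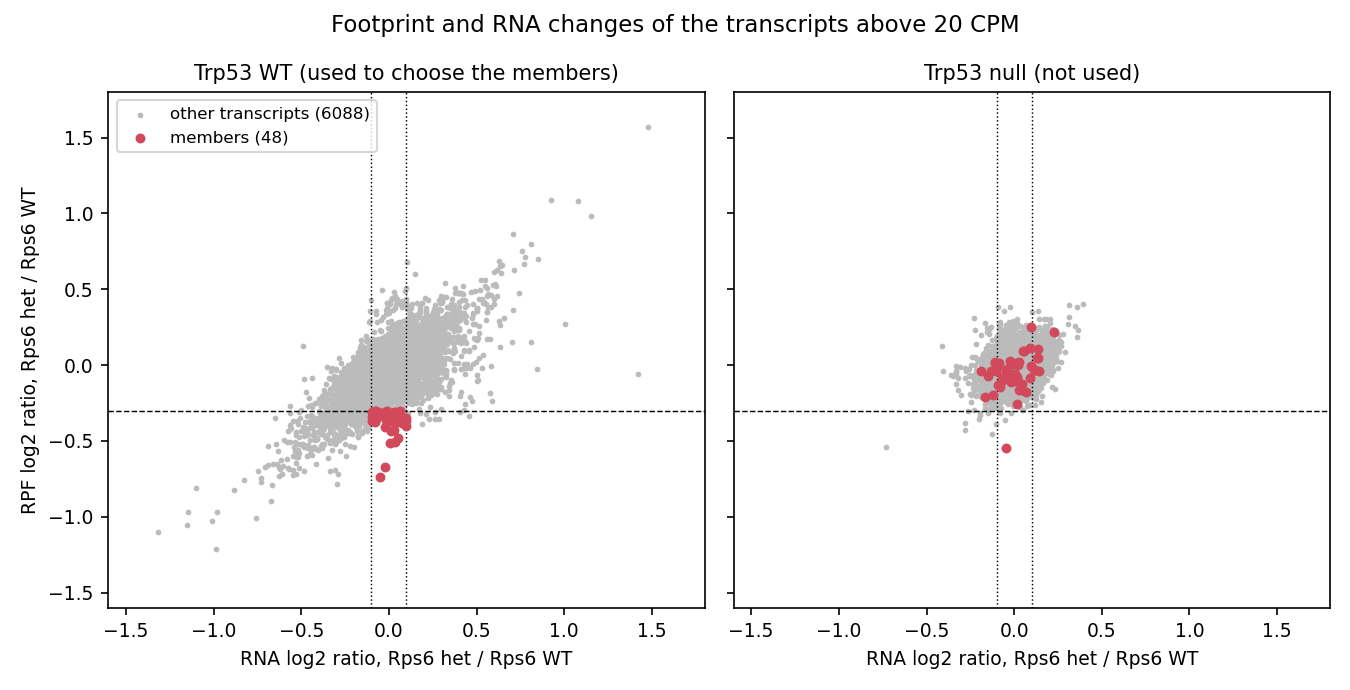
RNA log2 ratio (x axis) against RPF log2 ratio (y axis), Rps6 het over Rps6 WT, for the 6136 transcripts above 20 CPM. Red points are the 48 members, grey points the other transcripts, the dashed line the RPF limit of -0.3 and dotted lines the RNA limits of 0.1. In Trp53 WT the members lie below the dashed line and between the dotted lines by choice, and in Trp53 null 1 of 48 lies below the dashed line.

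The Trp53 null libraries, which the rule did not use, show what the same transcripts did where p53 was absent. By the same ratios, member RPF ran from -0.55 to 0.25 with a median of -0.04, a difference of -2.66%, beside a median of -0.01 over all 6136 transcripts. The middle of the distribution lay between quartiles of -0.10 and 0.02. RPF was below 0 in 33 of 48 members (68.8%), against 56.5% of transcripts. The limit of -0.3 was reached by 1 member, against 0.228% of transcripts (14 of 6136). All 48 members had a smaller RPF fall in Trp53 null than in Trp53 WT. Because the rule chose low values in Trp53 WT, a smaller fall in other libraries is partly set by that choice, and this difference was not tested.

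Members fell into unequal classes by their RPF ratio in Trp53 null. RPF lay within 0.1 of 0 in 31 members (64.6%), against 77.4% of transcripts, so level RPF was less frequent among members. Another 12 members had ratios between -0.3 and -0.1, beside 799 of the 6136 transcripts. The median of these 12 members was -0.15, with RNA within 0.1 in 10 and lower in 2. In 4 members RPF was over 0.1, beside 574 of the 6136 transcripts. These 4 members ran from 0.11 to 0.25, with RNA also over 0.1 in 2 of them. The order of the falls in Trp53 WT was hardly kept. Across the 48 members Pearson's r between the RPF ratios in both backgrounds was 0.41 and Spearman's rho 0.06, and without the member ranked 1 r was 0.07 and rho 0.00 (n = 47). Over all 6136 transcripts r was 0.44 and rho 0.42. These are correlations across transcripts that share their libraries, and the rule narrows the range of the members' values in Trp53 WT.

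Member RNA in Trp53 null ran from -0.19 to 0.23 with a median of 0.01. It was within 0.1 of 0 in 33 of 48 members, against 74.5% of transcripts, and below 0 in 23, against 38.5%. RNA was under -0.1 in 8 members, of which 6 had RPF below 0, and over 0.1 in 7, of which 4 had RPF above 0. The RPF less RNA ratio was below 0 in 30 members, against 66.5% of transcripts, and its median was -0.03 beside -0.04 over all transcripts. By count and median, TE of the members was not lower than over all transcripts in Trp53 null. The rule as a whole, applied to Trp53 null, found 5 transcripts (0.0815%), 1 of them a member.

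Replicate pools overlapped for most members in Trp53 null. All Rps6 het RPF libraries lay below all Rps6 WT libraries in 6 members, against 12% of transcripts, and above them in 2, against 7.94%. RNA of the groups overlapped in 40 members, against 83.1%.

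**Figure D2:**
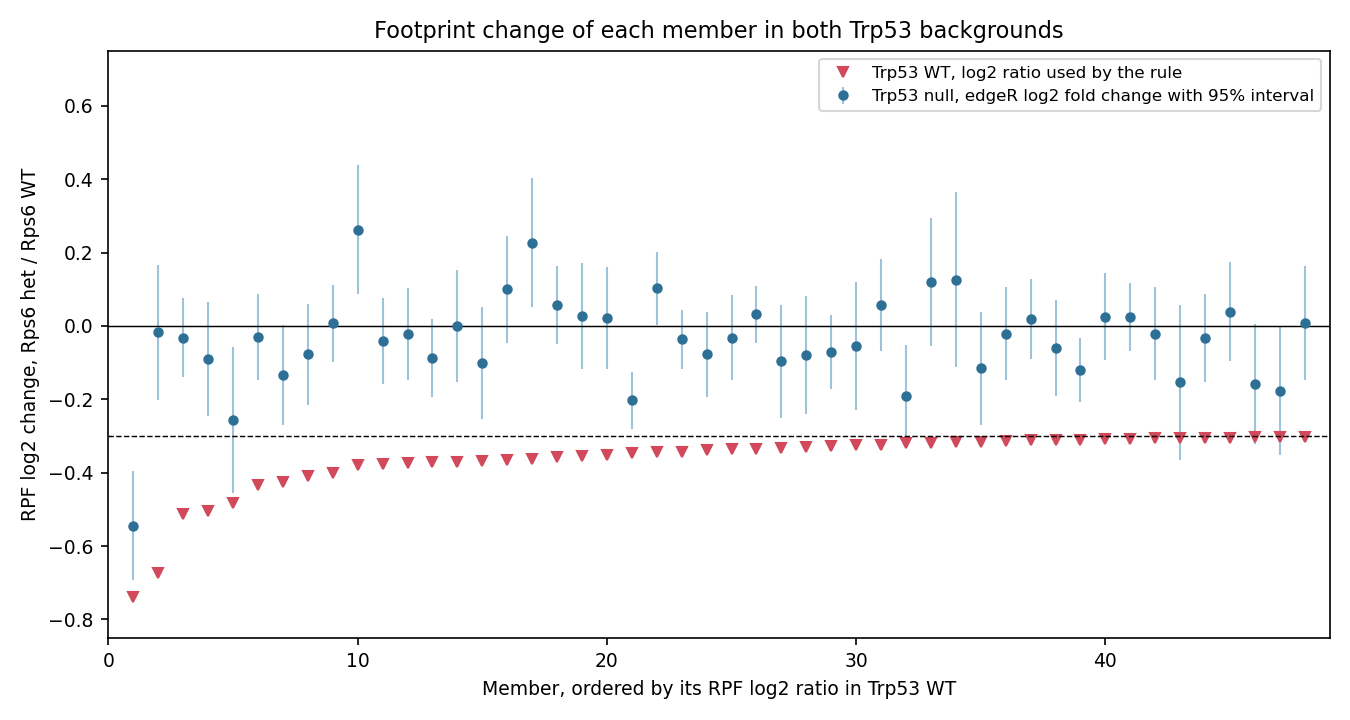
RPF log2 change, Rps6 het over Rps6 WT (y axis), for the 48 members ordered by their RPF ratio in Trp53 WT (x axis). Red triangles are the Trp53 WT ratios used by the rule, blue points the edgeR log2 fold changes in Trp53 null with 95% intervals. In Trp53 null the member ranked 1 stands at -0.54, and the intervals of 42 members lie above the dashed line at -0.3.

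In the test of single transcripts in Trp53 null, 2 of the 48 members were called lower in RPF and 0 higher by edgeR's quasi-likelihood test at an adjusted p under 0.05. All 48 were among the 12147 transcripts tested, of which 0.288% were called lower and 0.617% higher. Among the 6136 transcripts above the level limit the shares were 0.522% lower and 1.09% higher. At an unadjusted p under 0.05 there were 6 members lower, against 7.94% of the 6136, and 3 higher, against 7.95%. DESeq2 called 1 member lower, ENSMUST00000075995.6, and 0 higher, beside 58 of 12147 transcripts lower and 89 higher. It gave no adjusted p for 21 members, among them ENSMUST00000112096.8, called lower by edgeR, and ENSMUST00000169453.7. The interval of the RPF change lay above -0.3 for 42 members, held -0.3 for 5 and lay below it for 1. The standard error (SE) of the log2 fold change had a median of 0.07 over the members.

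RNA of 0 of 48 members was called in Trp53 null in either direction, beside 0.0486% of 14411 transcripts called lower and 0.0208% higher, or 0.0815% and 0.0163% of the 6136. At an unadjusted p under 0.05, RNA was lower in 5 members, against 6.03%, and higher in 3, against 8.64%. DESeq2 also called 0 members in RNA, beside 20 of 14411 transcripts lower and 25 higher, and gave no adjusted p for 3 members. In the test of TE, 1 member was called lower and 0 higher, beside 0.0213% of 14080 transcripts lower and 0.178% higher, or 0.0326% and 0.391% of the 6136. At an unadjusted p under 0.05, TE was lower in 3 members, against 3.63%, and higher in 0, against 3.54%. With the embryo pool as a block, which joins the RPF and RNA library of each pool, the same number of members was called, while calls over all transcripts went from 28 to 57. P-values measure the spread between these pools.

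The 4 members given by ID were, in the RPF test in Trp53 null, the 2 with the smallest p among those lower in Rps6 het and the 2 with the smallest p among those higher. ENSMUST00000112096.8 had the deepest RPF fall of the set in Trp53 WT. Its RPF level was 53.8, 52.0 and 44.8 CPM in replicates 1 to 3 of Rps6 WT, Trp53 WT, and 28.5, 30.2 and 31.0 CPM in Rps6 het, Trp53 WT. In Trp53 null it was 51.3, 47.1 and 47.6 CPM in Rps6 WT and 34.2, 31.6 and 33.6 CPM in Rps6 het. All 6 Rps6 het libraries lay below all 6 Rps6 WT libraries, whichever the Trp53 genotype. The RPF log2 fold change of ENSMUST00000112096.8 in Trp53 null was -0.54 (SE 0.07, 95% interval -0.69 to -0.40, edgeR adjusted p = 8.61e-05), beside a ratio of -0.74 in Trp53 WT. Its ratio of -0.55 was the lowest RPF ratio of the 6136 transcripts in Trp53 null. Those libraries did not choose it as a member, but its p there chose it to be given by ID.

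RNA of ENSMUST00000112096.8 stayed close. With Trp53 WT it was 154 ± 12.6 CPM in the controls and 149 ± 6.38 CPM in Rps6 het, and with Trp53 null 138 ± 5.35 and 134 ± 6.01 CPM (SD, n = 3). The RNA log2 fold change in Trp53 null was -0.07 (edgeR adjusted p = 0.699). TE of ENSMUST00000112096.8 fell by 0.48 on the log2 scale in Trp53 null (SE 0.10, 95% interval -0.68 to -0.27, edgeR adjusted p = 0.037), and its RPF less RNA ratio of -0.50 was also the lowest of the 6136 transcripts. The TE call was lost on leaving out any 1 of the 6 Trp53 null pools, with adjusted p from 0.0994 to 0.234 and log2 fold changes from -0.53 to -0.43, and in a fit of the Trp53 null libraries alone (adjusted p = 0.0866). It held with the pool as a block (adjusted p = 0.00104). The RPF call of ENSMUST00000112096.8 held without each pool, with adjusted p from 0.000351 to 0.00232.

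ENSMUST00000075995.6, ranked 21, was the other member called lower in RPF. RPF was 435, 452 and 449 CPM in Rps6 WT, Trp53 WT and 350, 351 and 349 CPM in Rps6 het, Trp53 WT. The Trp53 null values were 463, 450 and 423 CPM in Rps6 WT and 398, 372 and 384 CPM in Rps6 het. The groups did not overlap in either background, and the Rps6 het libraries were closer to the controls in Trp53 null. The RPF log2 fold change of ENSMUST00000075995.6 in Trp53 null was -0.20 (SE 0.04, 95% interval -0.28 to -0.12, edgeR adjusted p = 0.00429). Without replicate 1 of Rps6 WT, Trp53 null it was -0.17 and no longer called (adjusted p = 0.0663).

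RNA of ENSMUST00000075995.6 differed from that of the member ranked 1. RNA was level in Trp53 WT (ratio 0.03) but lower, though not called, in Trp53 null. It was 190, 158 and 155 CPM there in Rps6 WT and 163, 163 and 122 CPM in Rps6 het, groups that overlapped, with a log2 fold change of -0.19 (SE 0.11, edgeR adjusted p = 0.531). TE of ENSMUST00000075995.6 in Trp53 null had a log2 fold change of -0.01 (SE 0.12, 95% interval -0.26 to 0.24). The lower footprints of this transcript in Trp53 null thus came with an RNA difference of like size.

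ENSMUST00000082405.1, ranked 10, was the only member whose RPF libraries overlapped in Trp53 WT. RPF was 560, 428 and 586 CPM in Rps6 WT, Trp53 WT and 448, 374 and 388 CPM in Rps6 het, Trp53 WT. In Trp53 null it was 555, 457 and 553 CPM in Rps6 WT and 604, 573 and 690 CPM in Rps6 het, so that here every Rps6 het library lay above every control. The RPF log2 fold change of ENSMUST00000082405.1 in Trp53 null was 0.26 (SE 0.09, 95% interval 0.09 to 0.44), which was not called by edgeR (adjusted p = 0.17). It was called with the replicate number as a block (adjusted p = 0.0129), without a filter on low counts (adjusted p = 3.05e-08) and in the Trp53 null libraries alone (adjusted p = 0.0334). It was not called with DESeq2 (adjusted p = 0.394), with DESeq2 size factors in edgeR (adjusted p = 0.17) or on leaving out any 1 of the 6 Trp53 null pools (adjusted p from 0.151 to 0.537). The spread within its groups was wide, with an SD of 84.3 CPM in the Rps6 WT, Trp53 WT libraries. RNA of ENSMUST00000082405.1 ran from 878 to 1382 CPM over the 12 RNA libraries and overlapped between groups in both backgrounds.

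ENSMUST00000169453.7, ranked 17, had 27.3, 28.2 and 26.4 CPM of RPF in Rps6 WT, Trp53 WT and 20.4, 20.5 and 22.4 CPM in Rps6 het, Trp53 WT. In Trp53 null it had 25.1, 21.2 and 23.9 CPM in Rps6 WT and 24.7, 26.3 and 30.9 CPM in Rps6 het. These last groups overlapped by a single library in RPF. RNA was 49.2, 46.6 and 46.4 CPM in Rps6 WT, Trp53 null and 56.5, 52.0 and 58.1 CPM in Rps6 het, Trp53 null, groups that did not overlap. The RPF log2 fold change in Trp53 null was 0.23 (SE 0.09, edgeR adjusted p = 0.246), and 0.13 without replicate 3 of Rps6 het, Trp53 null (edgeR adjusted p = 0.645). The RNA log2 fold change of ENSMUST00000169453.7 was 0.21 (SE 0.07, edgeR adjusted p = 0.296). TE changed by 0.02 (SE 0.11, 95% interval -0.21 to 0.25), so its RPF and RNA values moved by like amounts in Trp53 null, and neither was called.

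**Figure D3:**
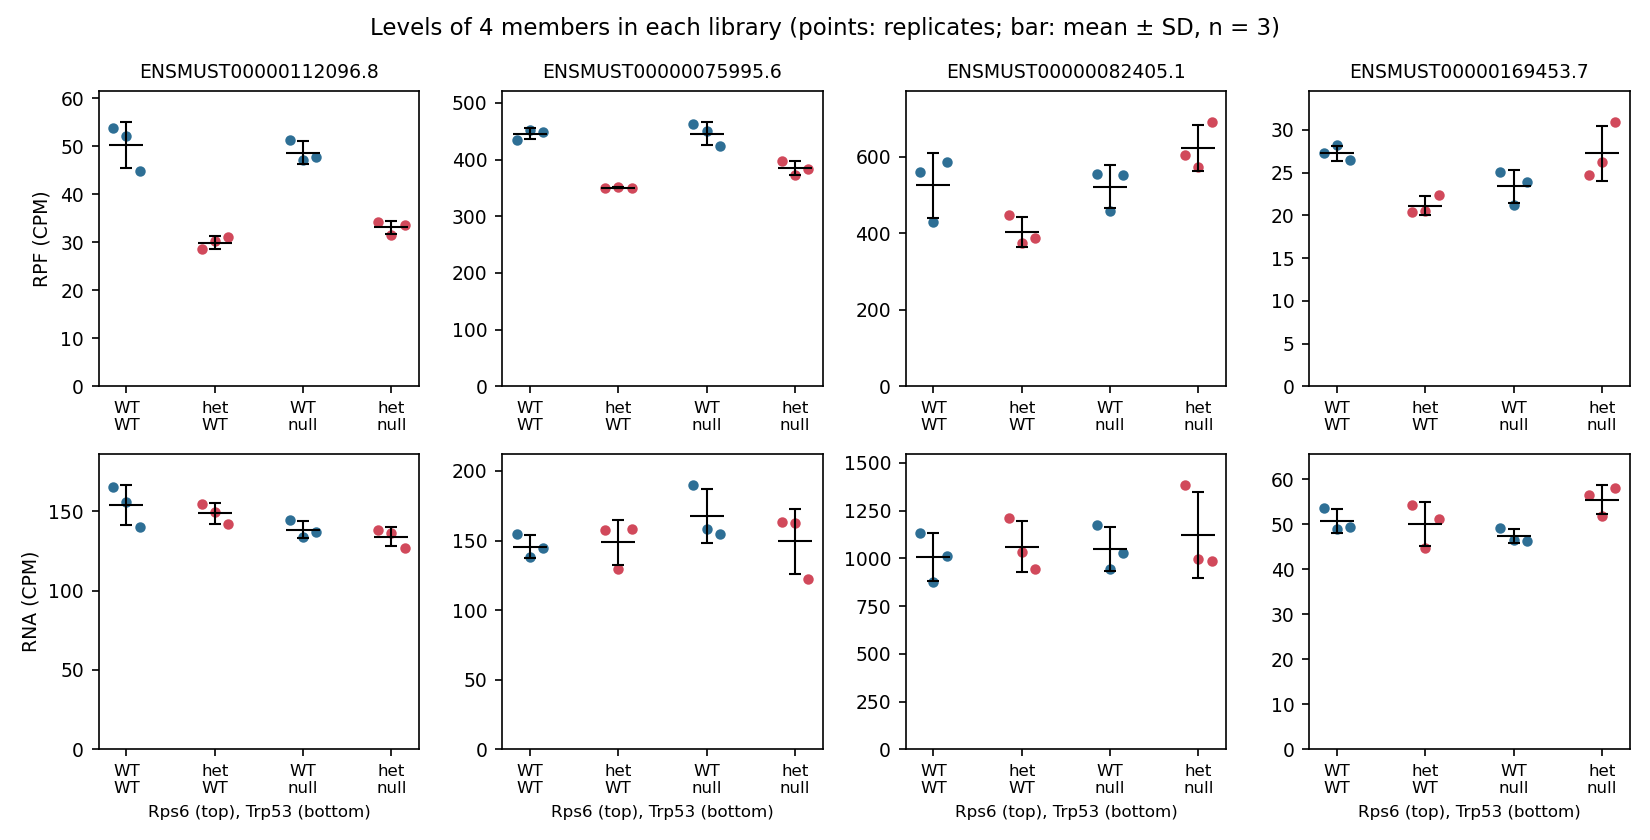
RPF (top) and RNA (bottom) level in CPM (y axes, from 0) of the 4 members given by ID in each of the 4 genotypes (x axes). Points are replicate pools, blue for Rps6 WT and red for Rps6 het, and bars are the mean ± SD (n = 3). ENSMUST00000112096.8 is lower in RPF in Rps6 het in both Trp53 backgrounds, at 29.9 and 33.1 CPM beside 50.2 and 48.7 CPM in the controls.

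Most of the other deep falls were not seen in Trp53 null. With Trp53 WT, RPF of the member ranked 2 was 52.7, 40.4 and 51.2 CPM in the controls and 27.2, 26.2 and 36.6 CPM in Rps6 het, a ratio of -0.67. With Trp53 null these were 47.7, 42.5 and 44.9 CPM against 44.8, 43.9 and 44.0 CPM, with a log2 fold change of -0.02 (SE 0.09, 95% interval -0.20 to 0.17). Its groups thus stood apart in Trp53 WT and lay inside one another in Trp53 null, while RNA means of all 4 genotypes were between 67.4 and 70.1 CPM.

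For the member ranked 3, RPF with Trp53 WT was 101, 101 and 109 CPM in the controls and 66.0, 73.9 and 77.8 CPM in Rps6 het, a ratio of -0.51. In Trp53 null the values were 97.8, 101 and 98.4 CPM against 103, 92.7 and 93.6 CPM, with a log2 fold change of -0.03 (SE 0.05). For the member ranked 4, with a ratio of -0.51, RPF was 53.5 ± 4.61 CPM against 37.6 ± 2.49 in Trp53 WT and 52.3 ± 3.98 CPM against 48.7 ± 5.81 in Trp53 null (SD, n = 3). Both overlapped between groups in Trp53 null. Their 95% intervals there reached down to -0.14 and -0.24, above the limit of -0.3.

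The member ranked 5 lay between these patterns. With Trp53 WT, RPF was 29.2, 42.4 and 36.9 CPM in the controls and 24.6, 25.2 and 27.5 CPM in Rps6 het, a ratio of -0.48. With Trp53 null they were 33.7, 36.7 and 38.4 CPM against 27.2, 29.5 and 34.0 CPM, groups that overlapped by 1 library. The log2 fold change of -0.26 (95% interval -0.45 to -0.06) was not called by edgeR (adjusted p = 0.255), and the interval held -0.3. RNA of this member was 33.1 ± 1.85 CPM in Rps6 WT, Trp53 null and 33.5 ± 1.17 in Rps6 het, Trp53 null.

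RPF groups stood apart in the direction of the rule for 6 members in Trp53 null. These were the 2 called ones and those ranked 24, 32, 39 and 46. The same was found in 736 of the 6136 transcripts above the level limit (12%), so members showed it at a like share. The member ranked 32 had 41.6, 43.4 and 42.3 CPM in Rps6 WT and 36.0, 33.7 and 41.1 CPM in Rps6 het (log2 fold change -0.19, edgeR adjusted p = 0.223). The member ranked 39 had 238, 227 and 231 CPM against 210, 214 and 213 CPM (-0.12, edgeR adjusted p = 0.218), and its RNA was lower by a like amount (-0.11, edgeR adjusted p = 0.361). For the members ranked 24 and 46 the log2 fold changes were -0.08 and -0.16. None of these 4 passed edgeR's test.

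Read depth spans a wide range in the set. The member with the most RPF reads, ranked 26, had 1738, 1872 and 1918 CPM in Rps6 WT, Trp53 WT and 1430, 1439 and 1512 CPM in Rps6 het, Trp53 WT. Its Trp53 null values were 1877, 1789 and 1837 CPM against 1913, 1794 and 1884 CPM, with a log2 fold change of 0.03 and an interval from -0.05 to 0.11. This is the narrowest RPF interval of the 48, and its groups overlapped in Trp53 null. The member with the fewest RPF reads, ranked 34, had 21.9 ± 1.77 CPM against 17.5 ± 2.06 in Trp53 WT and 19.6 ± 1.06 CPM against 21.2 ± 4.88 in Trp53 null. Its interval in Trp53 null ran from -0.11 to 0.36, the widest of the 48.

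Read by library, the members' RPF was low in each Rps6 het, Trp53 WT pool. These pools chose the members, so low values there are largely set by the rule. In each Rps6 het, Trp53 null pool it was near control. The median log2 difference of the 48 members from the mean of the Rps6 WT libraries was -0.34, -0.43 and -0.29 in replicates 1 to 3 of Rps6 het, Trp53 WT, with all 48 below 0 in each. In Rps6 het, Trp53 null it was -0.01, -0.07 and -0.05, with 27, 39 and 28 members below 0. Replicate 2 of Rps6 het, Trp53 WT, which had the lowest median of the members, was also the shallowest RPF library. Without it the rule chose 42 transcripts, 25 of them among the 48.

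RNA of the members varied between pools of 1 genotype. The median log2 difference in RNA was 0.01, -0.10 and 0.02 in Rps6 het, Trp53 WT and 0.09, -0.03 and -0.09 in Rps6 het, Trp53 null. In the Rps6 WT libraries themselves it was 0.05, -0.05 and -0.00 in Trp53 WT and 0.07, -0.05 and -0.02 in Trp53 null. Replicate 1 was thus above replicate 2 in each genotype, and the part of this in the results was not tested.

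**Figure D4:**
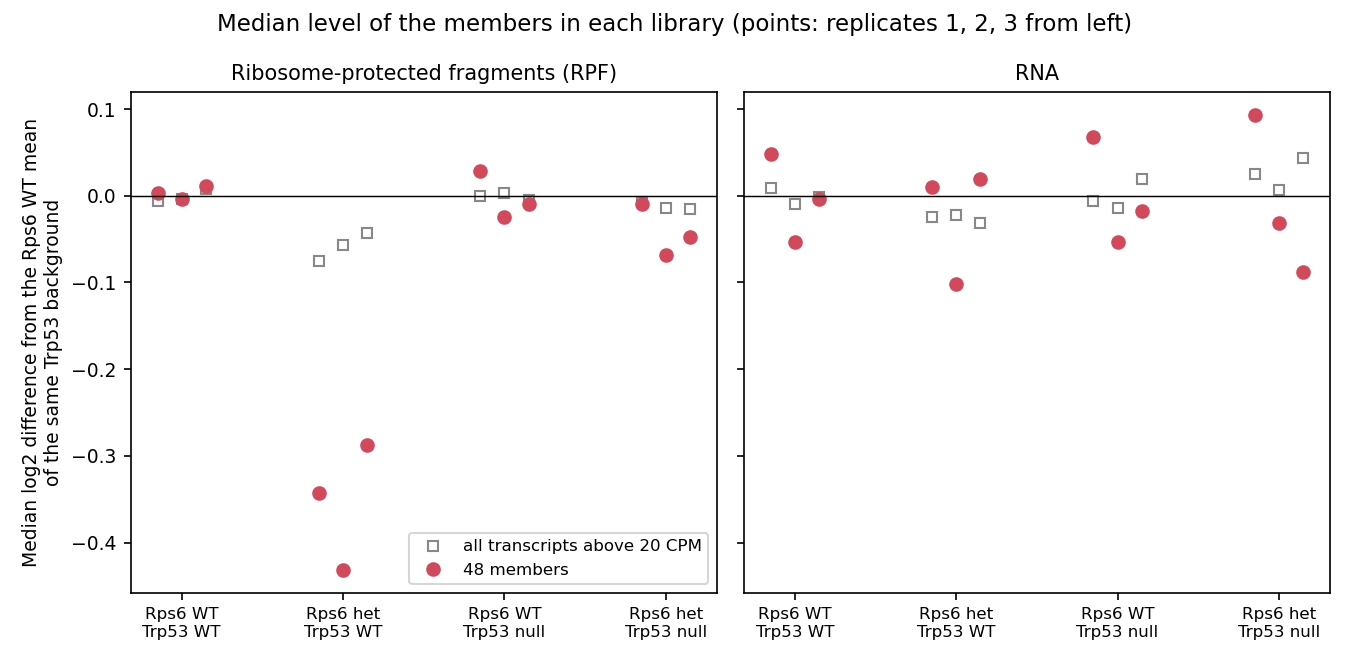
Median log2 difference of each library from the mean of the Rps6 WT libraries of the same Trp53 background (y axis), by genotype (x axis), for RPF (left) and RNA (right). Filled red points are the 48 members and open grey squares the 6136 transcripts above 20 CPM, with 3 replicates per genotype. RPF of the members lies at -0.43 to -0.29 in Rps6 het, Trp53 WT, whose libraries chose them. It lies at -0.07 to -0.01 in Rps6 het, Trp53 null.

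The same values can be read across Trp53 at fixed Rps6 genotype, as a description, since the libraries that chose the members take part. In Rps6 WT, Trp53 null over Trp53 WT, member RPF ratios ran from -0.22 to 0.08 with a median of -0.03. Of the 48, 40 lay within 0.1 of 0 (83.3%, against 91.1% of transcripts). RPF was below 0 in 39 members (81.2%, against 53.7%), so the controls that chose the members were mostly the higher ones. RNA had a median of -0.00. In Rps6 het the RPF ratios of the members ran from 0.06 to 0.63 with a median of 0.26, while the RNA median was 0.02. Over all 6136 transcripts the corresponding RPF medians were -0.00 in Rps6 WT and 0.03 in Rps6 het.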

How the data were processed

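Raw read counts per transcript, in whole numbers, were deposited by the authors in 1 table for 24 libraries. The table's name gives coding sequences as the counted region for RPF and whole transcripts for RNA. Per the submitters' processing notes, Bowtie2, UMI-tools and the builds GRCm38 and mm10 were named; versions and roles are not given in the sources used here. Whether the counts are of unique molecules is therefore not known, and depths cover counting error only.

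Members were found on CPM of library totals. Rps6 het and Rps6 WT were compared in Trp53 null with edgeR 4.0.16 (R 4.3.3): quasi-likelihood F tests on counts, TMM within library kind, filterByExpr (minimum count 10, minimum total 15), all 4 genotypes in 1 model per kind, and TE as the interaction of genotype and library kind over all 24 libraries. Benjamini-Hochberg adjustment ran over every transcript in a test, and "called" means an adjusted p under 0.05. The tests were tested on simulated data. Intervals are 95%. DESeq2 1.42.0, other scalings, filters, pseudocounts and blocks, and leaving out each pool were alternatives.

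The members, the tests and the 18 gene and marker lists were chosen with earlier results of these data known, and the lists could not be applied. Named transcripts are the 2 lower and 2 higher members with the smallest p in RPF in Trp53 null. Members ranked 2 to 5 and those with the most and fewest RPF reads were described without ID after their values were seen. So were the members not given by ID whose RPF groups stood apart in Trp53 null.

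The genotypes share replicate numbers. In Trp53 null, same-numbered RPF libraries had correlations of deviations from -0.06 to 0.05 and were not treated as paired. Same-numbered RNA libraries had correlations from 0.15 to 0.55, each over 0.1, and count as paired by the data alone. The main RNA and TE fits nevertheless held no replicate block, so their SE and p-values leave this pairing out. Fits with the block were alternatives. Between other pairs of genotypes, correlations of same-numbered RNA libraries ran from -0.45 to 0.45, so the pairing holds for the Trp53 null comparison only. The RPF and RNA library of a pool come from the same lysates per the labels' protocols, and they correlated at 0.18 to 0.56. The main TE fit held no pool block, so its SE, intervals and p-values leave the pairing within pools out. A fit with the pool as a block was an alternative. Replicates of a group differed by more than sampling noise (chi-square per degree of freedom 1.78 to 17.1 over 24 pairs), so all 3 were counted.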

Additional observations from a re-analysis of the deposited data

Results flagged for a closer look

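The member ranked 22 by RPF fall was the only member whose Rps6 het RPF libraries all lay below the controls in Trp53 WT and all above them in Trp53 null. RPF was 126, 141 and 146 CPM in Rps6 WT and 111, 102 and 113 CPM in Rps6 het with Trp53 WT, and 139, 137 and 137 CPM against 148, 150 and 143 CPM with Trp53 null. The log2 ratio in Trp53 null was 0.0941 and edgeR's log2 fold change 0.10 (adjusted p = 0.392). The difference between the backgrounds was not tested, since the rule chose the member for its fall in Trp53 WT.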

How the results depend on the processing

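Which transcripts count as members depended on the settings: 24 with TMM-scaled totals (14 of the 48 among them), 74 with a level of at least 10 CPM, 17 with at least 50 CPM, and 42 to 69 on leaving out 1 pool, with 25 to 38 of the 48 among them. A pseudocount of 0.1 or 2 CPM gave 51 and 39. In Trp53 null the members' median RPF ratio stayed between -0.05 and -0.03 in every alternative run, and 1 to 2 members reached -0.3 without 1 pool (2 without replicate 1 of Rps6 WT or replicate 3 of Rps6 het).

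Called members in RPF numbered 4 without a filter on low counts, 1 with DESeq2 and 1 to 2 without 1 pool, where replicate 1 of Rps6 WT, Trp53 null decided the lower count. With the replicate number as a block there were 3, and calls over all transcripts went from 110 to 168; same-numbered samples correlated best with each other in 2 of 6 RPF libraries. Over all transcripts RPF calls were 285 without a filter, 147 with DESeq2 and 60 to 92 without 1 pool. RNA calls among members were 0 in every alternative run, the replicate block included, with 4 to 47 over all transcripts. TE calls among members were 0 in the Trp53 null libraries alone and 0 to 0 without 1 pool, and 1 with each other alternative, the replicate block included. TE calls over all transcripts were 0 in Trp53 null libraries alone, 0 to 20 without 1 pool and 64 with DESeq2. The causes were not tested. The widest RPF interval was that of the member with the fewest RPF reads. The member ranked 10, at 525 CPM in Rps6 WT, Trp53 WT, also had an SE of 0.09, above the median of 0.07. The part of depth in the intervals was not tested.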
